A study of Drosophila mojavensis with 97 samples.

Results

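Vm26Aa (FBtr0162061, GI11336) and Vm26Ab (FBtr0168259, GI17534) are the vitelline membrane transcripts of *Drosophila mojavensis* described here, 2 of the 14528 transcripts on the array. They were chosen by name as a readout of egg formation, and the tables of the study pair both names with their transcripts. The vitelline membrane is the inner layer of the insect eggshell. In *D. melanogaster*, the somatic follicle cells around the growing oocyte secrete its proteins in the middle stages of egg formation, before they secrete the chorion that covers it, and both genes encode small structural proteins of this layer. RNA for both proteins is therefore found mainly in ovaries that hold egg chambers of those stages. Whole females were used, so that fewer follicle cells of the right stage and less RNA per follicle cell cannot be told apart in any value below.

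All flies were wild-type females. Those of Baja California came from Punta Prieta (PP) or San Quintin (SQ), and those of the mainland from Organ Pipe National Monument (OPNM) or Punta Onah (PO). As larvae they had fed on rotting tissue of agria or of organ pipe cactus. After eclosion the females were separated from males at daily counts and fed banana food at 25°C until, at 7 days of age, they spent 12 hr at 15°C, 25°C, or 35°C. Each array carried RNA of a pool of about 30 females. The 24 groups held 4 arrays each, except PP on agria at 35°C with 5, for a total of 97. The fifth array there is 1 more than the balanced design in the methods calls for, and all 5 were kept. Nothing in the labels says that pools of a group came from separate cultures, so that p-values measure the spread between these arrays. The values are log2 expression values normalized by the authors. Values of the 2 transcripts come from different probes and were not compared with each other in level.

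Over all arrays, medians lay between 9.807 and 10.1 and interquartile ranges between 2.515 and 3.421 on the log2 scale, with mean interquartile ranges of 3.08 at 15°C, 3.018 at 25°C, and 3.047 at 35°C. The median transcript differed by less than 0.03 between any 2 temperatures. The highest value of any transcript was 15.56, above the values of both genes at 25°C, which reached 13.47 for Vm26Aa and 14.24 for Vm26Ab. That value comes from other probes, so that saturation of the probes of these 2 genes could not be examined. None of the 27 listed genes for other eggshell proteins, yolk proteins, and the yolk receptor could be paired with a transcript, and none of 5 male markers, so that the female tissue was not checked by other markers.

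Both genes fell at 15°C in all populations and on both cacti. Vm26Aa ranged between 8.56 and 12.73 on the 32 arrays at 15°C, with a median of 10.80, against 12.22 to 13.47 on the 32 arrays at 25°C, with a median of 12.90. Vm26Ab ranged between 10.52 and 13.77 at 15°C, with a median of 12.17, and between 13.42 and 14.24 at 25°C, with a median of 13.81. Of the 32 arrays at 15°C, 30 were below every array at 25°C for Vm26Aa and 31 for Vm26Ab. The share of all transcripts that separate as far was not computed, for this or for any count of overlap below. As an equally weighted difference of group means, Vm26Aa was 4.52-fold lower at 15°C (log2 difference -2.18, 95% interval -2.48 to -1.88, limma, adjusted p = 3.91e-20). Vm26Ab was 3.08-fold lower (-1.63, -1.84 to -1.41, adjusted p = 2.03e-21). At this threshold, an adjusted p of 0.01 over all transcripts and pairwise comparisons together, 1.66% of all transcripts were lower at 15°C. Among those 241, 2 had a larger drop than Vm26Aa and 5 a larger drop than Vm26Ab, against a median absolute difference of 0.35 among all transcripts past the threshold. The study named vitelline membrane genes for this very step, so that the drop itself is no independent evidence. For several chorion genes the study reports the opposite direction over the same step, with higher expression in the cold. The drop is therefore described for Vm26Aa and Vm26Ab only, and not for the eggshell as a whole. No other eggshell gene could be set beside them here, and whether the drop extends to the eggshell genes in general was not tested.

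**Figure D1:**
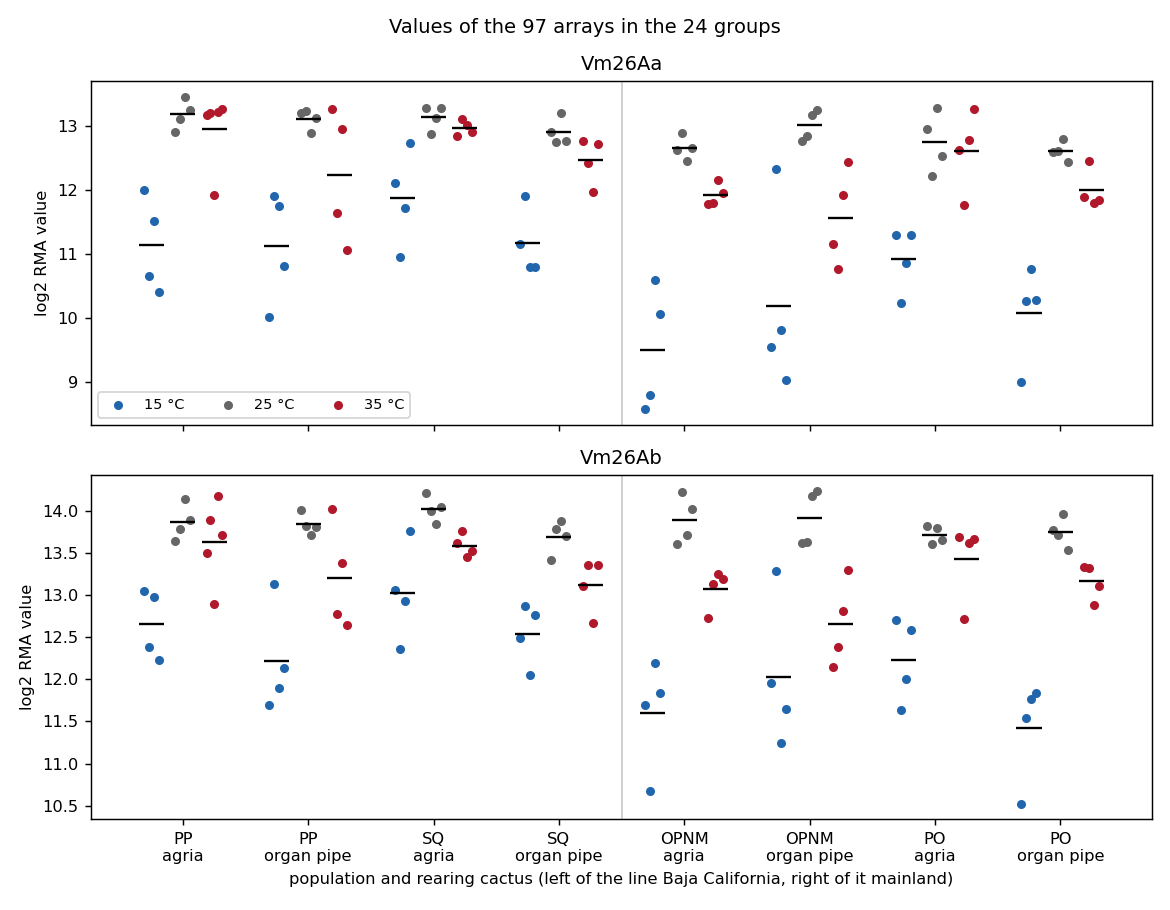
Log2 RMA values of Vm26Aa (top) and Vm26Ab (bottom) on each of the 97 arrays (points), by population and rearing cactus on the horizontal axis and by temperature (15, 25, and 35°C from left to right within a group, in blue, grey, and red), with group means as black bars. In each of the 8 combinations of population and cactus all 15°C points lie below all 25°C points, and the SD pooled over groups is largest at 15°C, though not in every combination.

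The Baja California combinations are given first. For PP on agria, Vm26Aa had values of 12.00, 10.66, 11.51, and 10.41 at 15°C, against 12.91, 13.12, 13.47, and 13.25 at 25°C. For PP on organ pipe cactus, it had 10.02, 11.91, 11.75, and 10.82 at 15°C and 13.21, 13.24, 12.89, and 13.13 at 25°C. The drop in PP was thus nearly the same on both cacti, with log2 differences of -2.04 on agria (0.206% of all transcripts called lower) and -1.99 on organ pipe cactus (0.324% called lower). SQ flies on agria gave 12.11, 10.95, 11.72, and 12.73 at 15°C and 13.29, 12.88, 13.14, and 13.29 at 25°C, a log2 difference of -1.27 that did not pass the threshold (adjusted p = 0.0613), where 0.234% of all transcripts did. On organ pipe cactus, SQ flies gave 11.15, 11.91, 10.80, and 10.80 at 15°C and 12.91, 12.75, 13.21, and 12.77 at 25°C, a difference of -1.75 (adjusted p = 0.00445, 0.131% called lower). The arrays of the 2 temperatures did not overlap in any of these groups.

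The lowest values of Vm26Aa were those of mainland flies at 15°C. OPNM flies on agria had 8.56, 8.80, 10.59, and 10.06 at 15°C, against 12.64, 12.89, 12.45, and 12.66 at 25°C. This was the largest drop of the 8 combinations, 8.93-fold (log2 difference -3.16, adjusted p = 4.66e-08, 0.2% of all transcripts called lower). OPNM flies on organ pipe cactus had 9.54, 12.34, 9.81, and 9.02 at 15°C and 12.77, 12.86, 13.18, and 13.26 at 25°C. Here 1 array, replicate 2 with a value of 12.34, was well above the other 3 but still below all arrays at 25°C. With it the difference was -2.84 (0.131% called lower), and without it -3.56. PO flies on agria had 11.30, 10.23, 10.86, and 11.29 at 15°C and 12.96, 12.22, 13.29, and 12.53 at 25°C, a difference of -1.83 (0.248% called lower). PO flies on organ pipe cactus had 8.99, 10.26, 10.77, and 10.27 at 15°C and 12.60, 12.61, 12.81, and 12.45 at 25°C, a difference of -2.54 (0.117% called lower). All 4 mainland combinations passed the threshold, although the call for PO on agria was lost without replicate 2 of 15°C (-1.60, adjusted p = 0.0212) or replicate 3 of 25°C (-1.65, adjusted p = 0.0171). In Baja California, the call for PP on organ pipe cactus was lost without replicate 1 of 15°C (-1.62, adjusted p = 0.0159), and that for SQ on organ pipe cactus without any 1 of 5 arrays (adjusted p of at most 0.0201).

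Vm26Ab followed the same order of regions. In PP flies on agria it was 13.06, 12.38, 12.99, and 12.23 at 15°C and 13.64, 13.79, 14.14, and 13.90 at 25°C. On organ pipe cactus PP flies had 11.70, 13.13, 11.90, and 12.14 at 15°C and 14.01, 13.83, 13.72, and 13.82 at 25°C. The differences were -1.21 and -1.63, and the single array at 13.13 was the highest of its group for both genes. SQ flies had 13.06, 12.36, 12.93, and 13.77 on agria at 15°C, against 14.22, 14.00, 13.85, and 14.06 at 25°C. They had 12.50, 12.87, 12.05, and 12.77 on organ pipe cactus at 15°C, against 13.42, 13.79, 13.89, and 13.71 at 25°C. In SQ the drop was smallest, -1.001 on agria (adjusted p = 0.0303, not past the threshold) and -1.15 on organ pipe cactus (adjusted p = 0.0091).

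Mainland flies again had the lowest values of Vm26Ab at 15°C. OPNM flies on agria had 11.69, 10.67, 12.20, and 11.84 at 15°C and 13.61, 14.23, 13.72, and 14.03 at 25°C. OPNM flies on organ pipe cactus had 11.96, 13.29, 11.24, and 11.64 at 15°C and 13.63, 13.64, 14.19, and 14.24 at 25°C. The high array at 13.29 is the one that was also high for Vm26Aa, and the difference was -1.89 with it and -2.31 without it. PO flies on agria had 12.71, 11.64, 12.01, and 12.59 at 15°C and 13.83, 13.61, 13.80, and 13.66 at 25°C, a difference of -1.49. PO flies on organ pipe cactus had 10.52, 11.54, 11.76, and 11.84 at 15°C and 13.78, 13.72, 13.97, and 13.54 at 25°C. This was the largest drop of Vm26Ab, 5.05-fold (-2.34, adjusted p = 1.21e-08), slightly past the -2.30 of OPNM on agria. For each gene, 7 of the 8 combinations passed the threshold. For Vm26Ab, the call in SQ on organ pipe cactus was lost without any 1 of 18 arrays (adjusted p of at most 0.0556) and that in PP on agria without any 1 of 5 arrays (adjusted p of at most 0.0356), while SQ on agria passed the threshold without replicate 4 of 15°C (-1.25, adjusted p = 0.00751).

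**Figure D2:**
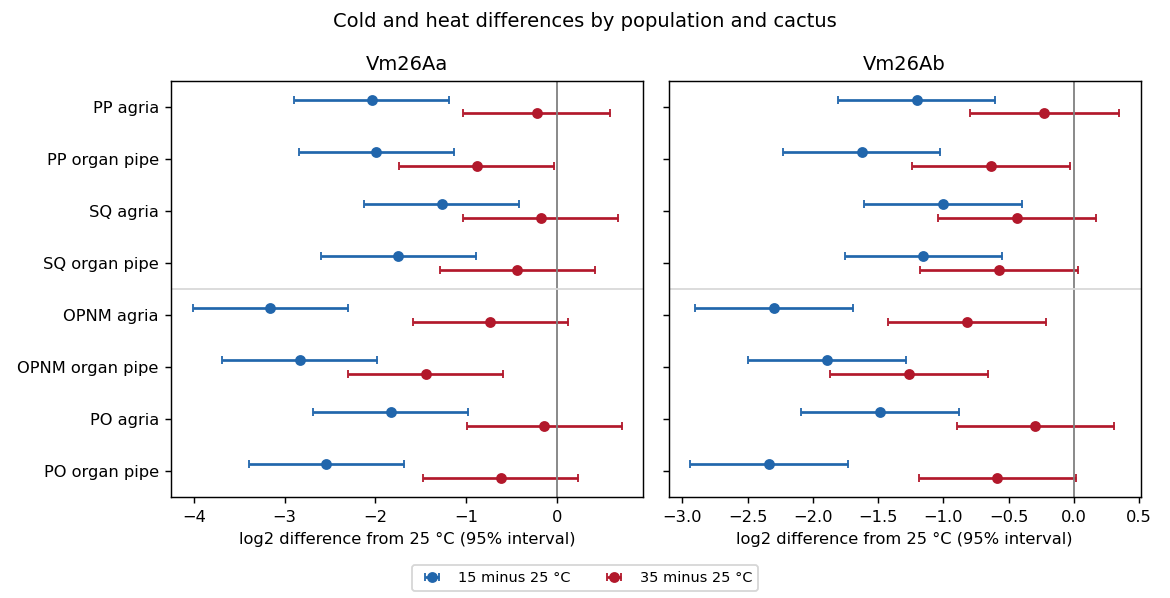
Log2 differences from 25°C (horizontal axis) of Vm26Aa (left) and Vm26Ab (right) in each combination of population and cactus (rows, Baja California above the line and mainland below it), for 15 minus 25°C in blue and 35 minus 25°C in red, with 95% intervals from limma. All 16 cold differences lie below 0 with their intervals, from -1.001 to -3.16, and all 16 heat differences have means below 0, most with intervals that include 0.

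The next question was whether the cold drop depended on where the flies came from. It averaged -1.76 in Baja California flies and -2.59 in mainland flies for Vm26Aa, and -1.25 in Baja California flies and -2.003 in mainland flies for Vm26Ab, where 0.764% and 0.688% of all transcripts were called lower. By population, the difference of Vm26Aa was -2.02 in PP, -1.51 in SQ, -2.998 in OPNM, and -2.19 in PO, and that of Vm26Ab -1.42 in PP, -1.08 in SQ, -2.10 in OPNM, and -1.91 in PO. All of these passed the threshold, where the shares of all transcripts called lower were 0.661% in PP, 0.248% in SQ, 0.282% in OPNM, and 0.537% in PO. By these means, both Baja California populations had smaller drops than both mainland populations for both genes. The order of PP and PO was not settled. In the drop, PP minus PO was 0.17 for Vm26Aa (95% interval -0.69 to 1.02) and 0.50 for Vm26Ab (-0.11 to 1.10). The difference between the regions in the drop was 0.83 for Vm26Aa (95% interval 0.22 to 1.43, unadjusted p = 0.0078 in limma) and 0.76 for Vm26Ab (0.33 to 1.18, unadjusted p = 0.000711). Neither passed the threshold after adjustment over all transcripts and contrasts of this kind, with adjusted p = 0.688 and 0.306. No transcript on the array did, or 0% of them, and 156 (1.07%) had an unadjusted p under 0.05 in limma, of which 30 had a smaller p than Vm26Aa and 7 a smaller p than Vm26Ab. A permutation test over arrays, with region labels permuted within cactus and temperature, gave an unadjusted p of 0.0342 for Vm26Aa and 0.003 for Vm26Ab. These arrays come from 4 populations. With each population counted once, the smallest p that an exact permutation test can give is 0.333, so that a difference between regions and one between these populations cannot be told apart.

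The region difference in level was largest at 15°C. Averaged over temperatures, Baja California flies were higher by 0.71 for Vm26Aa (adjusted p = 2.22e-05) and by 0.38 for Vm26Ab (adjusted p = 0.00204), in a comparison that called 9.31% of all transcripts. Vm26Aa ranged between 10.02 and 12.73 in the 16 Baja California arrays at 15°C, with a median of 11.33, and between 8.56 and 12.34 in the 16 mainland arrays, with a median of 10.24. Vm26Ab ranged between 11.70 and 13.77 in Baja California arrays, with a median of 12.63, and between 10.52 and 13.29 in mainland arrays, with a median of 11.80. For each gene 15 of the 16 Baja California arrays were above the mainland median, and in all 8 pairings of a Baja California and a mainland population on 1 cactus the Baja California mean was higher, although the arrays overlapped in 6 of the pairings for Vm26Aa and 5 for Vm26Ab. The difference was 1.16 for Vm26Aa (95% interval 0.73 to 1.59, adjusted p = 7.11e-05) and 0.79 for Vm26Ab (0.49 to 1.09, adjusted p = 0.000131), in a comparison that called 2.39% of all transcripts. Both calls rested on a spread shared with the other temperatures. When the arrays at 15°C were fitted alone, the adjusted p was 0.0289 for Vm26Aa and 0.0309 for Vm26Ab, and neither passed the threshold. In the fit of all arrays, leaving out any 1 array changed neither call (adjusted p of at most 0.000563), and without replicate 2 of OPNM on organ pipe cactus the differences were 1.34 and 0.90.

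At 25°C the regions were much closer. Vm26Aa had a median of 13.13 in Baja California arrays (12.75 to 13.47) and 12.71 in mainland arrays (12.22 to 13.29), a difference of 0.33 (adjusted p = 0.459). Vm26Ab had a median of 13.84 in Baja California arrays (13.42 to 14.22) and 13.75 in mainland arrays (13.54 to 14.24), a difference of 0.04 (95% interval -0.27 to 0.34, adjusted p = 0.947). For Vm26Aa all 16 Baja California arrays were above the mainland median at 25°C, and the permutation test over arrays gave an unadjusted p of 0.0017. At 35°C Baja California flies were higher by 0.63 for Vm26Aa and by 0.31 for Vm26Ab, with adjusted p = 0.0582 and 0.26. The comparisons of the regions called 2.91% of all transcripts at 25°C and 3.15% at 35°C, without either gene.

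**Figure D3:**
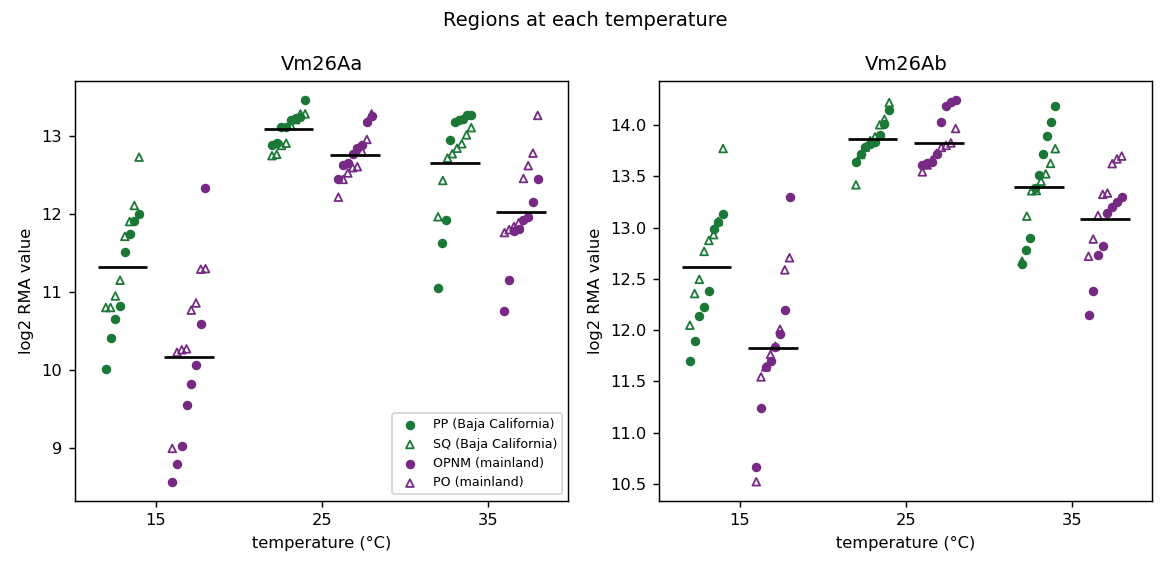
Log2 RMA values of Vm26Aa (left) and Vm26Ab (right) on each array at 15, 25, and 35°C (horizontal axis), with Baja California arrays in green (PP filled circles, SQ open triangles) left of mainland arrays in purple (OPNM filled circles, PO open triangles) and bars at the equally weighted mean of each region. The bars of the regions differ by 1.16 and 0.79 at 15°C and by 0.33 and 0.04 at 25°C, and the points overlap at each temperature.

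Between single populations, the calls at 15°C were all of a Baja California against a mainland population. SQ flies had more Vm26Aa than OPNM flies at 15°C by 1.68 (adjusted p = 4.45e-05), and PP flies had more than OPNM flies by 1.29 (adjusted p = 0.0026). For Vm26Ab, SQ exceeded OPNM by 0.97 (adjusted p = 0.00119) and PO by 0.96 (adjusted p = 0.00138). These comparisons called 2.88% (SQ and OPNM), 1.15% (PP and OPNM), and 1.38% (SQ and PO) of all transcripts. The arrays at 15°C fitted alone gave adjusted p between 0.025 and 0.0878 for these 4 differences, none past the threshold. PP and SQ did not differ past the threshold at 15°C in either gene, nor did OPNM and PO. In the drop itself, PP minus SQ was -0.51 for Vm26Aa (95% interval -1.36 to 0.35) and -0.34 for Vm26Ab (-0.94 to 0.27), and OPNM minus PO was -0.81 (-1.67 to 0.04) and -0.18 (-0.79 to 0.42). Limma called 0% of all transcripts in either contrast, with 848 and 1401 at an unadjusted p under 0.05. A joint test of all populations in the step between 15 and 25°C gave adjusted p = 0.526 for Vm26Aa and 0.442 for Vm26Ab (limma F test).

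None of the differences in level between the rearing cacti passed the threshold. At 15°C, Vm26Aa had a median of 10.90 on agria (8.56 to 12.73) and 10.78 on organ pipe cactus (8.99 to 12.34), and Vm26Ab a median of 12.37 on agria (10.67 to 13.77) and 11.93 on organ pipe cactus (10.52 to 13.29). The differences at 15°C were 0.23 for Vm26Aa (95% interval -0.20 to 0.65) and 0.33 for Vm26Ab (0.03 to 0.63), with adjusted p = 0.664 and 0.229, and 0.0964% of all transcripts were called. Flies on agria had the higher mean in PP, SQ, and PO, and flies on organ pipe cactus in OPNM, for both genes, and the arrays of the cacti overlapped in all 4 populations. In the cold drop, agria minus organ pipe was 0.20 for Vm26Aa (-0.40 to 0.81, adjusted p = 1) and 0.25 for Vm26Ab (-0.17 to 0.68, adjusted p = 1), in a limma contrast that called 0% of all transcripts, with 698 at an unadjusted p under 0.05. Among populations, the cactus difference in the drop ran between -0.32 in OPNM and 0.71 in PO for Vm26Aa, and between -0.41 in OPNM and 0.85 in PO for Vm26Ab. The sign in OPNM rested on 1 array. Without replicate 2 of OPNM on organ pipe cactus at 15°C, the difference there was 0.40 for Vm26Aa and 0.01 for Vm26Ab.

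At 35°C, both genes were below 25°C by much less than at 15°C. Vm26Aa ranged between 10.76 and 13.28 on the 33 arrays at 35°C, with a median of 12.45, and Vm26Ab between 12.14 and 14.18, with a median of 13.32. The means at 35°C were below those at 25°C in all 8 combinations for each gene. The arrays of the 2 temperatures were fully apart in 2 combinations for Vm26Aa and 5 for Vm26Ab, counts without a share over all transcripts. Vm26Aa was 1.497-fold lower at 35°C (log2 difference -0.58, 95% interval -0.88 to -0.28, adjusted p = 0.00786), and Vm26Ab 1.52-fold lower (-0.60, -0.82 to -0.39, adjusted p = 2.77e-05). In this comparison 6.86% of all transcripts were lower. The call for Vm26Aa was at the edge of the threshold and was lost on leaving out any 1 of 25 arrays, with an adjusted p of at most 0.0149. That for Vm26Ab held on leaving out each array in turn. Fitted with the 2 temperatures alone, the adjusted p of Vm26Aa was 0.00029.

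The drop at 35°C was largest in OPNM flies. OPNM flies on organ pipe cactus had Vm26Aa values of 11.15, 10.76, 11.93, and 12.45 at 35°C, all below the 12.77 to 13.26 at 25°C, with a difference of -1.45. On agria, OPNM flies had 11.79, 11.81, 12.16, and 11.96 at 35°C, all below the 12.45 to 12.89 at 25°C, with a difference of -0.73. Vm26Ab in OPNM flies on organ pipe cactus was 12.14, 12.38, 12.82, and 13.30 at 35°C, 2.40-fold lower than at 25°C (-1.26, adjusted p = 0.0034), which was the only call among the 16 heat differences by combination. The labels of this group give replicate number 3 to 2 of the 4 arrays, whose values differed (12.38 and 12.82 for Vm26Ab), and they were counted as separate samples. In that combination 0.2% of all transcripts were lower, and the call was lost without any 1 of 4 arrays (adjusted p of at most 0.0278). On agria Vm26Ab had 12.73, 13.14, 13.25, and 13.20 in OPNM flies at 35°C, a difference of -0.82. Averaged over cacti, the heat difference in OPNM was -1.09 for Vm26Aa (adjusted p = 0.0155) and -1.04 for Vm26Ab (adjusted p = 0.000437, with 0.564% of all transcripts called lower), against -0.38 and -0.44 in PO flies. The difference between these mainland populations was -0.71 for Vm26Aa (95% interval -1.56 to 0.14) and -0.60 for Vm26Ab (-1.20 to 0.004), with adjusted p = 1 for both, where 0.0275% of all transcripts were called.

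In the other populations, the values at 35°C overlapped those at 25°C for Vm26Aa. PO flies had 12.62, 11.76, 12.78, and 13.27 on agria and 11.89, 12.46, 11.80, and 11.84 on organ pipe cactus. SQ flies had 12.85, 13.11, 13.02, and 12.90 on agria and 12.78, 12.43, 11.97, and 12.72 on organ pipe cactus. PP flies on agria had 13.19, 13.21, 11.93, 13.22, and 13.28, of which replicate 3 stood far below the others. Without that array the difference in PP on agria was 0.04, against -0.22 with it. PP flies on organ pipe cactus were split, with 13.28 and 12.96 close to the 12.89 to 13.24 at 25°C and 11.64 and 11.06 far below it.

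Vm26Ab at 35°C repeated this split only in part. PP flies on organ pipe cactus had 14.03, 12.78, 13.39, and 12.65, again with replicates 2 and 4 lowest. Here the 13.39 was also below the 13.72 to 14.01 at 25°C. PP flies on agria had 13.51, 13.90, 12.90, 14.18, and 13.72, with replicate 3 lowest for both genes. In SQ and PO flies, replicate 2 of PO on agria stood farthest from the other arrays of its group. The OPNM arrays on organ pipe cactus were also spread, between 12.14 and 13.30. SQ flies had 13.63, 13.77, 13.45, and 13.52 on agria and 13.11, 13.36, 12.67, and 13.36 on organ pipe cactus, all below the SQ arrays at 25°C on the same cactus. PO flies had 13.70, 12.72, 13.62, and 13.67 on agria and 13.34, 13.32, 12.89, and 13.12 on organ pipe cactus.

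With all arrays, the differences between the cacti were larger at 35°C than at the other temperatures. Without replicate 2 of every group this order turned, with 0.78 for Vm26Aa and 0.75 for Vm26Ab at 15°C, against at most 0.62 and 0.44 at 35°C on leaving out any 1 replicate number. The mean on agria at 35°C was higher than that on organ pipe cactus in all 4 populations for each gene, by 0.55 for Vm26Aa (95% interval 0.13 to 0.97, adjusted p = 0.12) and by 0.39 for Vm26Ab (0.10 to 0.69, adjusted p = 0.112). Neither passed the threshold, in a comparison that called 2.25% of all transcripts. The permutation test over arrays, with cactus labels permuted within populations, gave unadjusted p = 0.0071 for Vm26Aa and 0.0068 for Vm26Ab. By cactus, the heat difference was -0.32 on agria and -0.85 on organ pipe cactus for Vm26Aa, and -0.44 on agria and -0.76 on organ pipe cactus for Vm26Ab. On organ pipe cactus both passed the threshold (adjusted p = 0.00633 and 0.00024), and on agria neither did (adjusted p = 0.475 and 0.0605), while 3.61% of all transcripts were called lower on organ pipe cactus and 3.43% on agria. For Vm26Aa the call on organ pipe cactus was lost without any 1 of 9 arrays (adjusted p of at most 0.0183). The difference between the cacti in the heat difference was 0.53 (-0.07 to 1.13, unadjusted p = 0.0841) for Vm26Aa and 0.32 (-0.10 to 0.74, unadjusted p = 0.138) for Vm26Ab, with adjusted p = 1 for both, so that a dependence of the heat difference on cactus was not shown. The regions differed in the heat difference by 0.30 (-0.30 to 0.90) for Vm26Aa and 0.27 (-0.15 to 0.70) for Vm26Ab, with adjusted p = 1 for both. In limma, 0% of all transcripts passed the threshold in either contrast, and 468 for cactus and 807 for region had an unadjusted p under 0.05.

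Between the extremes, flies at 35°C had more RNA of both genes than flies at 15°C. The mean was higher at 35°C in all 8 combinations, by 1.60 for Vm26Aa (95% interval 1.295 to 1.90, adjusted p = 9.22e-14) and by 1.02 for Vm26Ab (0.81 to 1.23, adjusted p = 5.75e-12), in a comparison in which 6.33% of all transcripts were higher. The arrays did not overlap in 5 combinations for Vm26Aa and 3 for Vm26Ab. Ordered by mean, the 24 groups ran for Vm26Ab through all 8 groups at 25°C, then 7 of the groups at 35°C, and then the 8 groups at 15°C, with OPNM on organ pipe cactus at 35°C among them in place 18. For Vm26Aa the groups at 25°C took places 1 to 10, those at 35°C places 5 to 17, and those at 15°C places 16 to 24. SQ on agria was the highest group at 15°C for both genes, with 11.88 ± 0.75 for Vm26Aa and 13.03 ± 0.58 for Vm26Ab (SD, n = 4). No 2 neighbours in either order differed by more than their pooled SD, and all 23 pairs of neighbours overlapped for each gene.

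The spread between arrays of a group also depended on temperature. The pooled SD within groups was 0.87 at 15°C, 0.25 at 25°C, and 0.58 at 35°C for Vm26Aa, and 0.60 at 15°C, 0.21 at 25°C, and 0.41 at 35°C for Vm26Ab. At 15°C Vm26Aa thus varied 3.52 times as much as at 25°C and Vm26Ab 2.84 times, while the median ratio over all transcripts was 0.983 and only 0.0482% and 0.165% of transcripts reached the ratios of these genes. At 35°C the ratios to 25°C were 2.34 and 1.95, against a median of 1.39 over all transcripts, and 2.24% and 9.7% of transcripts reached them. With a pooled spread, the standard error of a difference between the regions at 15°C was 0.21 for Vm26Aa and 0.15 for Vm26Ab. From the spread at 15°C alone it was 0.31 and 0.21.

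Arrays that were low for 1 gene within their group tended to be low for the other. Deviations of the arrays from their group means were correlated at 15°C (Pearson's r = 0.84, Spearman's rho = 0.83, 32 arrays), at 25°C (r = 0.67, rho = 0.77, 32 arrays), and at 35°C (r = 0.87, rho = 0.80, 33 arrays). The permutation p of r was 1e-05 at 15 and 35°C, the smallest that the permutations can give, and 3e-05 at 25°C, and that of rho was 1e-05 at each temperature. After Benjamini-Hochberg adjustment over the 3 relations, the highest of them was 3e-05. Without the 2 arrays farthest from the median of Vm26Aa, r was 0.78 at 15°C, 0.75 at 25°C, and 0.84 at 35°C. Both values of an array come from the same pool of females and the same hybridization, so that differences between pools and between hybridizations cannot be told apart. The interquartile range of the arrays was not clearly related to either gene (r between -0.17 and 0.26 in 6 relations, lowest Benjamini-Hochberg adjusted permutation p of r = 0.697).

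**Figure D4:**
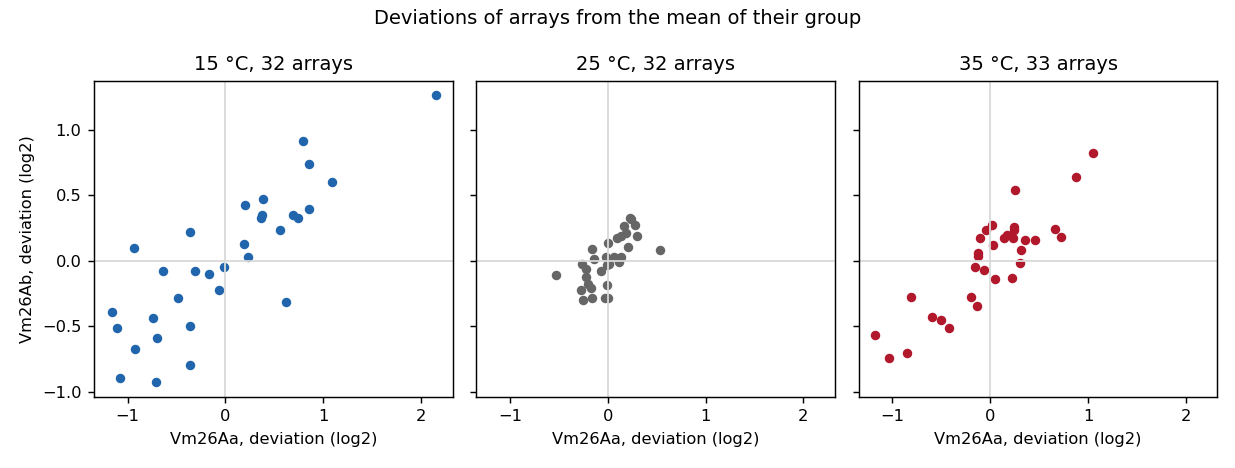
Deviation of each array from the mean of its group (log2) for Vm26Ab (vertical axis) against Vm26Aa (horizontal axis), at 15, 25, and 35°C from left to right, 1 point per array. The points run along a rising line at each temperature (r = 0.84, 0.67, and 0.87), with the widest scatter at 15°C and the narrowest at 25°C.

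Within an array, the log2 ratio of Vm26Aa to Vm26Ab changed in the cold but not detectably in the heat. The ratio was lower by 0.55 at 15°C than at 25°C, in all 8 combinations (permutation test, p = 1e-05). At 35°C it differed from that at 25°C by 0.02 (permutation test, p = 0.717), with 5 combinations higher and 3 lower. It was higher at 35°C than at 15°C by 0.58, in all 8 combinations (permutation test, p = 1e-05). The probes of the 2 transcripts can differ in how steeply they respond, which was not tested.

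Of all other transcripts, 9 of 14526 followed the mean of the 2 genes over the 24 group means with r above 0.9. The closest were FBtr0162041 (r = 0.96) and FBtr0172526 (r = 0.96), against r = 0.97 between Vm26Aa and Vm26Ab themselves. The most opposite were FBtr0166498 (r = -0.86) and FBtr0161432 (r = -0.86). None of the 10 most similar or 10 most opposite transcripts was paired with a gene symbol in the tables used here. The group means share arrays and the same temperature step, so that these values are descriptions.

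A list of genes drawn up around egg formation was also examined. It includes genes of ecdysteroids and of nutrition, juvenile hormone, and sex, and a role of each gene in egg formation was not tested. Of 63 listed genes, 17 could be paired with a transcript, most of them through tables of genes that the study chose on these same samples, so that their share of calls is no independent evidence. At 15°C, 5 of the 17 rose, 1 fell, and 11 did not pass the threshold, with a median difference of 0.12, against -0.02 over all transcripts, of which 4.26% rose and 1.66% fell. Among those of the follicle cells, mirr, a homeobox gene that patterns the follicle cells in *D. melanogaster*, was higher by 0.25 and br, an ecdysone-induced zinc finger gene, by 0.27. Of the ecdysteroid enzymes, dib was higher by 0.20 and shd, which makes the final active hormone, by 0.31. The germ line gene out was higher by 0.42, and Thor, a translation inhibitor under insulin control, was lower by 0.31. These 6 differences had adjusted p between 0.000162 and 0.00791 in limma. On leaving out 1 replicate number, between 1 and 5 of the 17 genes were called higher, and none was called lower without replicate 1, 3, or 4. At 35°C, 5 of the 17 fell, 2 rose, and 10 did not pass the threshold, with a median of -0.09, against -0.02 over all transcripts, of which 6.86% fell and 5.31% rose. The ecdysteroid enzyme gene phm fell by 1.18 and CG10407 by 1.20, both more than either vitelline membrane gene in the heat. Smaller falls were those of dib (0.36), Jhebp29 (0.22), and pip (0.21), a sulfotransferase gene that sets the dorsal-ventral axis of the embryo. InR, the insulin receptor gene, rose by 0.19, and mud, a spindle gene needed in female meiosis, rose by 0.23. The count of 2 genes called higher at 35°C was 0 without replicate 3 of every group and 1 without replicate 2 of every group. It was also 1 without moderation, without replicate 2 of OPNM on organ pipe cactus at 15°C, or without replicate 3 of PP on agria at 35°C. With the interquartile range as a covariate or with adjustment within the comparison it was 4.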

How the data were processed

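The deposited values are those the authors made: Cy3-labeled cDNA of whole females was hybridized to 1-color NimbleGen arrays, spot intensities were quantile-normalized across arrays in NimbleScan, and the probes of each transcript were summarized with RMA to a log2 value by the authors. Raw intensities were not used here, so that background and saturation could not be examined. Neither the scan nor the hybridization batch is given in the sources used here.

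Samples were grouped by their labels. For each of 14528 transcripts, limma 3.58.1 in R 4.3.3 fitted 1 mean for each of the 24 groups to all 97 arrays (lmFit and eBayes, 73 residual degrees of freedom). Regions, populations, and cacti are equally weighted means of groups. Adjusted p (Benjamini-Hochberg) covers all transcripts and 107 pairwise comparisons in 1 family, and 30 contrasts of differences in another, with a threshold of 0.01. F tests were adjusted within each term. Intervals are at 95%. The fit was tested on simulated data. Permutation tests used 100000 resamples in Python 3.11.15 with numpy 2.4.6 and were 2-sided. Precision is limited by the number of arrays. The 35°C group of OPNM on organ pipe cactus has the number 3 on 2 arrays and lacks the number 2.

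The members and lists were chosen with earlier results of these data known. Named were the 2 members, the 2 other transcripts most and least similar to them over the 24 group means, and the genes of an egg formation list past the threshold. Transcripts were named through supplementary tables of the study, which pair 4161 of them with a gene and 560 with a symbol. The RefSeq gene table named none.

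Alternatives were other scalings, the array interquartile range as a covariate, no moderation, adjustment within a comparison, a filter on dim transcripts, the replicate number as a block, subsets of temperatures, and leaving out replicates. Permutation tests of region and cactus, and 2 single arrays left out, were added after the data had been seen.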

Additional observations from a re-analysis of the deposited data

Results flagged for a closer look

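In 3 of the 48 sets of arrays (24 groups for each of 2 genes), 1 array stood apart from the others by more than Dixon's 95% limit, where chance alone flags about 5% of sets, or 2.4. All 3 were at 35°C. Vm26Aa was 11.93 in replicate 3 of PP on agria, against 13.19 to 13.28 on the other 4 arrays of that group, and the same array was the lowest of its group for Vm26Ab. Vm26Ab was 12.72 in replicate 2 of PO on agria, against 13.62 to 13.70 on the other 3 arrays. Vm26Aa was 12.46 in replicate 2 of PO on organ pipe cactus, against 11.80 to 11.89 on the other 3. Replicate 2 of OPNM on organ pipe cactus at 15°C, with 12.34 for Vm26Aa and 13.29 for Vm26Ab, did not pass this limit because the other 3 arrays of its group were themselves spread.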

How the results depend on the processing

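For 38 main results, 332 values were computed under other settings without a replicate left out, and 319 kept both their direction and their side of the threshold. Many of the 38, such as the contrasts of differences, were far from the threshold. This count therefore says little about the results that passed it. The cold difference of both genes, the difference between 35 and 15°C, and the heat difference of Vm26Ab kept theirs under every setting run. The heat difference of Vm26Aa (-0.58) had an adjusted p of 0.0103 without moderation. The region differences at 15°C (1.16 and 0.79) missed the threshold when only arrays of that temperature were fitted, and these and the region differences over all temperatures (0.71 and 0.38) missed it with 4 population means, a test that cannot reach it. In the permutation test over arrays, whose p is unadjusted, the region differences of Vm26Aa at 25°C (0.33) and 35°C (0.63), the cactus differences at 35°C (0.55 and 0.39), and the region difference in the cold drop of Vm26Ab (0.76) had p under 0.01. The cactus difference of Vm26Aa at 25°C (0.02) was -0.034 with arrays centred on their medians. Without replicate 3 of PP on agria at 35°C, the heat difference of Vm26Aa was -0.55 (adjusted p = 0.0122) over all groups and 0.04 in that group. Without replicate 2 of OPNM on organ pipe cactus at 15°C, the cactus difference of OPNM in the cold drop was 0.40 for Vm26Aa and 0.0095 for Vm26Ab.

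With 1 replicate number left out of every group, the call of the heat difference of Vm26Aa was lost each time (-0.62 to -0.50, adjusted p up to 0.137), that of the region difference of Vm26Aa at 15°C once (0.97 to 1.34, counting the single array left out), and that of the region difference of Vm26Ab over all temperatures 3 times (0.33 to 0.42). The cactus difference of Vm26Ab passed without replicate 2, over all temperatures (range 0.21 to 0.40) and at 15°C (0.12 to 0.75). Sign changes, none in a called value, occurred for Vm26Aa in the cactus difference at 15°C (-0.055 to 0.78) and in the cold drop (-0.058 to 0.73), there in PP (-0.83 to 0.31) and OPNM (-0.97 to 0.76), in the heat difference of PP on agria (-0.37 to 0.13), and in the cactus difference of SQ in the heat (-0.032 to 0.46). For Vm26Ab they occurred in OPNM minus PO in the cold drop (-0.39 to 0.093), PP minus SQ in the heat (-0.034 to 0.17), the heat difference of PP on agria (-0.35 to 0.051), and the cactus difference in the cold drop of PP (-0.013 to 0.80), SQ (-0.10 to 0.45), and OPNM (-1.02 to 0.52) and in the heat in SQ (-0.092 to 0.28).

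The labels do not say that a replicate number marks a shared culture or day. Deviations of same-numbered arrays had a mean correlation between -0.018 and 0.003, a mean that would not show a pattern running in opposite directions on the cacti. Of the 24, 23, 25, and 24 arrays with numbers 1 to 4, 9, 11, 2, and 2 correlated best with their own number. These counts were higher for numbers 1 and 2, and no chance level was computed for them. The numbers were not treated as pairs in the main fit. With the number as a replicate block, the cold difference of Vm26Aa was -2.18 (adjusted p = 3.66e-19), and 2 calls were lost, both of Vm26Ab, the cold difference of SQ on organ pipe cactus (-1.15, adjusted p = 0.0108) and SQ minus OPNM over all temperatures (0.47, adjusted p = 0.0111). Brightness over background could not be used to judge precision.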

Other observations

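At 15°C, replicate 2 stood at opposite ends of its group on the 2 cacti. It was the highest array of the group in 3 of the 4 organ pipe groups for each gene, and the lowest in 2 of the 4 agria groups for Vm26Aa and 3 of the 4 for Vm26Ab. Without replicate 2 of every group, Vm26Ab was higher on agria than on organ pipe cactus at 15°C by 0.75 (limma, adjusted p = 0.000498), against 0.33 with all arrays, and Vm26Aa by 0.78 (adjusted p = 0.0243), against 0.23. Arrays at these ends pull the difference down, so that leaving them out enlarges it by construction, and these adjusted p are no test of the cactus. On leaving out each replicate number in turn, the difference ran between 0.12 and 0.75 for Vm26Ab and between -0.055 and 0.78 for Vm26Aa. The pattern was seen after the alternative had been run, and whether the number 2 marks a shared batch of arrays was not tested.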
